A study of Mus musculus with 6 samples.

Results

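The measurements concern 10 genes of T-cell checkpoint signalling among the 22623 genes counted: the receptors Pdcd1, Havcr2, Lag3, Tigit, Ctla4 and Icos, the transcription factor Tox, and the ligands Cd274, Pdcd1lg2 and Cd80. They were chosen by symbol, with no measured value in the rule, and each symbol matched 1 row in every matrix. Receptors and Tox are described in nuclei that carried T and NK markers, and ligands in macrophage-like, dendritic-like and mesenchymal-like nuclei, library by library.

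Checkpoint receptors sit on T cells and NK cells and pass inhibitory or costimulatory signals when they meet their ligands on antigen-presenting or tumor cells. Pdcd1 (PD-1) binds Cd274 (PD-L1) and Pdcd1lg2 (PD-L2), Ctla4 binds Cd80, and Icos is a costimulatory relative of Ctla4. In T cells that meet antigen for a long time, Tox is known to accompany lasting expression of several inhibitory receptors, and interferon is a known inducer of Cd274.

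Single-nucleus RNA sequencing was done on whole frozen tumors that grew from TC1 cells, a mouse lung tumor line, placed under the skin of C57BL/6 male mice aged 8 weeks. Every mouse carried loxP/loxP alleles of Slc16a7, the gene for the lactate transporter MCT2, and the inducible, systemic Cre transgene mCre-Tg. The 3 KO mice received tamoxifen once daily for 5 consecutive days and the 3 CO mice received vehicle, 2 days before the tumor cells, and tumors were taken after 24 days. The tumor cells did not come from these mice, so the deletion concerned host cells, and with no tamoxifen-treated mice lacking Cre the effect of tamoxifen and that of the deletion cannot be told apart.

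The 6 libraries held 18865 barcodes and from 13252572 to 22057084 UMIs each, and 17534 nuclei were kept. Median UMIs per kept nucleus ran from 1095 to 4887 over the libraries. Slc16a7 had 128, 159 and 166 UMIs in CO1 to CO3, against 266, 107 and 353 in KO1 to KO3, which is 8.64, 11.6 and 21.2 CPM (UMIs of a gene scaled to the UMI total of the nuclei summed) against 15.7, 6.96 and 31.6 CPM, so KO2 was the lowest library and KO3 the highest. The counts are per gene and do not resolve the deleted part, so this checks nothing about the deletion, and KO and CO are used here as the names in the labels. Only 48 barcodes occurred in more than 1 library, on 157 nuclei, of which 2 were T/NK-like. The number of genes called between KO and CO depended on KO1. Without it, edgeR's quasi-likelihood test called 1937 of 10017 genes in macrophage-like sums and 2462 of 12944 in mesenchymal-like sums, against 0 with it. In sums over all nuclei the test called 0 of 13807 genes without KO1.

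Nuclei were grouped by clusters named from the markers detected in them, with the 10 genes kept out of the genes that formed the clusters. The T/NK-like class held 601 nuclei (79, 81 and 76 in CO1 to CO3, and 135, 42 and 188 in KO1 to KO3) at a median of 946 UMIs. Within it, a cluster of 361 nuclei was led by Themis and Bcl11b, genes of the T lineage. The other cluster, of 240 nuclei, was led by Ncr1, the NK cell receptor NKp46. Of the 16 T/NK markers only 1, Cd3e, had no UMI in the Ncr1 cluster. The macrophage-like class held 6057 nuclei, the dendritic-like class 153, and the mesenchymal-like class, which includes the TC1 cells, 9044. Markers did not separate tumor cells from stroma inside the mesenchymal-like class. A further 184 nuclei, here called the mixed cluster, were led by T/NK genes at a median of 5997.5 UMIs, and they stayed unnamed, since 9 macrophage and 8 mesenchymal markers were detected in them against 2 T/NK markers.

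RNA of other cells was present in the T/NK-like class and differed between libraries. The 15 mesenchymal markers summed to 4736, 5059 and 3062 CPM in CO1 to CO3 and to 1975, 5627 and 6377 CPM in KO1 to KO3, against 12886 to 25218 CPM in mesenchymal-like nuclei. The 18 macrophage markers summed to between 462 and 1230 CPM there, against 3898 to 7589 CPM in macrophage-like nuclei. Only 1 of these 18, Cd163, had no UMI in the T/NK-like class. The part that this RNA had in the values below was not tested.

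The genes fell into groups by where their UMIs lay. Tox, Pdcd1 and Icos had most of their UMIs in T/NK-like nuclei (58.7%, 52.2% and 56.1% of 1384, 136 and 139 UMIs). Havcr2 had 69.7% of its 1992 UMIs in macrophage-like nuclei. Lag3, Tigit, Ctla4, Cd274, Pdcd1lg2 and Cd80 had more UMIs in mesenchymal-like nuclei than in any other class. That class also held the most UMIs of all genes together, so levels below are given in CPM of a class. Tigit had only 39 UMIs in all 6 libraries.

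**Figure D1:**
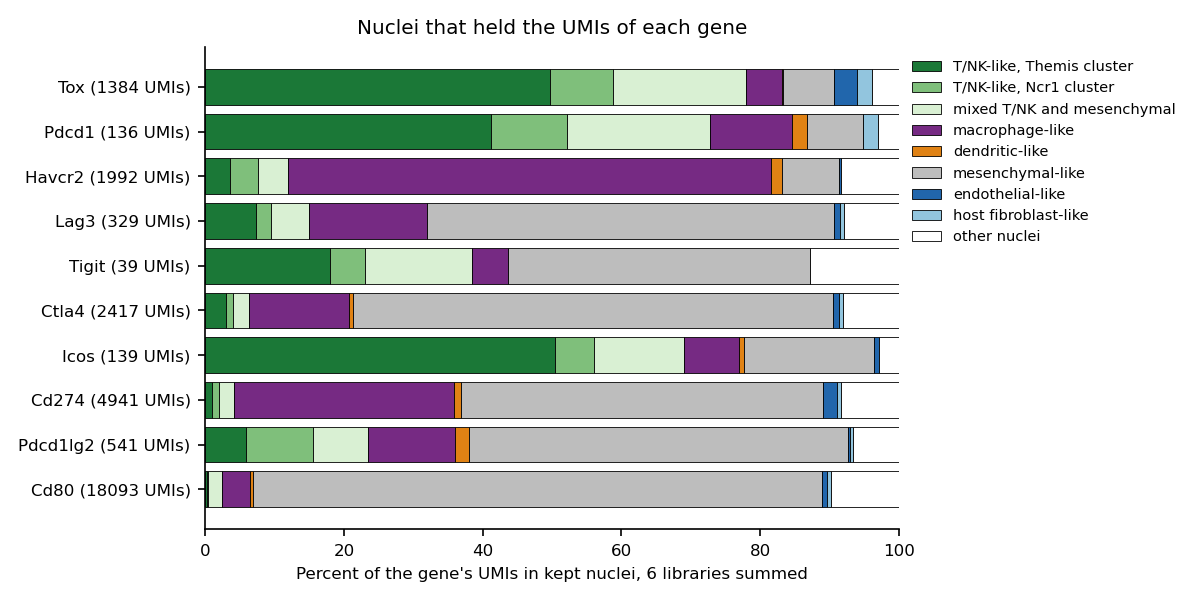
Share of each gene's UMIs (percent, 6 libraries summed) by class of nuclei, with the gene's total in brackets. Tox, Pdcd1 and Icos lay mostly in T/NK-like nuclei (58.7%, 52.2% and 56.1%), Havcr2 in macrophage-like nuclei (69.7%) and Cd80 in mesenchymal-like nuclei (82.1%).

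Tox (chromosome 4, 6686353 to 6991557, minus strand, GRCm38) encodes a nuclear factor of the T and NK lineages. In the Themis cluster its level was 1648, 2473 and 1706 CPM in CO1 to CO3 and 612, 1198 and 2269 CPM in KO1 to KO3. In the Ncr1 cluster it was 442, 205 and 729 CPM in CO, against 40.8, 609 and 639 CPM in KO. Tox was therefore higher in the Themis cluster than in the Ncr1 cluster in 6 of 6 libraries, and KO1 was the lowest library in both. Outside these nuclei Tox was at 9.63 CPM in macrophage-like and 1.68 CPM in mesenchymal-like nuclei, 0.0961% of the level in the Themis cluster. Small host classes lay between by CPM: skeletal muscle-like nuclei had 69.4 CPM, host fibroblast-like nuclei 57.9 CPM and endothelial-like nuclei 49.2 CPM. Few nuclei gave these values: unthinned, a Tox UMI was found in 2 of 59, 13 of 106 and 10 of 189 nuclei of these classes.

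After each nucleus was thinned to 500 UMIs, so that libraries were compared at 1 depth, a Tox UMI was found in 40.5%, 40.7% and 39.5% of T/NK-like nuclei in CO1 to CO3 and in 11.1%, 28.6% and 38.8% in KO1 to KO3. At this depth every CO library lay above every KO library, and KO3 lay within 1 percentage point of CO3. The groups overlapped at other depths: unthinned the shares were 60.8%, 53.1% and 48.7% in CO and 20%, 38.1% and 56.4% in KO (p = 0.3, two-sided exact permutation test), and in the nuclei that could be thinned to 1000 UMIs they were 60%, 36.6% and 56.2% against 14.7%, 47.4% and 61.3% (p = 0.7, same exact test). The mean share was 40.2% ± 0.674 in CO and 26.2% ± 14.0 in KO (SD, n = 3), a difference of -14.1 percentage points (p = 0.1, two-sided exact permutation test, which cannot give a smaller p with 3 against 3). Leaving out 1 library at a time gave differences from -20.4 to -6.54 percentage points. The Tox level overlapped: in T/NK-like sums it was 1174 ± 174 CPM in CO, against 972 ± 716 CPM in KO. On the log2 scale edgeR gave -0.29 with an SE of 0.50 (adjusted p = 0.957). That value became 0.15 without KO1 and 0.30 with the mixed cluster added. In macrophage-like sums, where KO1 held 1 Tox UMI and KO3 held 44, edgeR gave 0.58 with an SE of 0.89 (adjusted p = 0.856) and, without KO1, 1.35 (adjusted p = 0.0485, against 0.0485 to 0.999 over all alternatives).

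Pdcd1 (chromosome 1, 94038305 to 94052553, minus strand) encodes PD-1, the inhibitory receptor of activated T cells. It had 11, 7 and 6 UMIs in the Themis cluster in CO1 to CO3 and 4, 1 and 27 UMIs in KO1 to KO3, which is 183, 143 and 109 CPM against 59.7, 31.5 and 208 CPM. The KO libraries thus held both the highest and the lowest values. In the Ncr1 cluster 12 of 15 Pdcd1 UMIs came from KO1. Pdcd1 was at 2.11 CPM in macrophage-like and 0.181 CPM in mesenchymal-like nuclei, and no UMI was found in endothelial-like nuclei, which allows up to 3.14 CPM. Its log2 fold change in T/NK-like sums was 0.42 (SE 0.47, edgeR adjusted p = 0.946).

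Havcr2 (chromosome 11, 46454935 to 46481255, plus strand) encodes TIM-3, which T cells, NK cells, macrophages and dendritic cells are known to carry. In the Themis cluster it was at 133, 266 and 163 CPM in CO1 to CO3 and 119, 158 and 224 CPM in KO1 to KO3, with the groups interleaved. In the Ncr1 cluster it had 1, 1 and 0 UMIs in CO1 to CO3, over 34, 32 and 25 nuclei, against 65, 2 and 9 in KO1 to KO3, over 73, 12 and 64 nuclei. Per nucleus of the Ncr1 cluster that was 0.0294, 0.0312 and 0 UMIs in CO, against 0.890, 0.167 and 0.141 in KO, so each KO library lay above each CO library and KO1 alone gave 83.3% of these UMIs. The macrophage markers in the same cluster summed to 932, 655 and 1492 CPM in CO and 1255, 447 and 1061 CPM in KO. Their part in the Havcr2 level was not tested.

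In T/NK-like sums Havcr2 had the largest difference of the 10 genes. Its level was 74.3, 115 and 107 CPM in CO1 to CO3 and 442, 124 and 192 CPM in KO1 to KO3, which is 98.7 ± 21.5 CPM against 253 ± 168 CPM. The groups did not overlap, as they did not for 11% of the 3448 genes tested in this class. The log2 fold change was 1.44 (SE 0.46) with an unadjusted p of 0.00809 and an adjusted p of 0.946 in edgeR, and 0 genes (0%) passed the call of an absolute log2 fold change of at least 0.58 and an adjusted p of at most 0.05. Without KO1 it was 0.72 with an SE of 0.39 (edgeR adjusted p = 0.372) at a count of 39 called genes (1.01%), which did not include Havcr2. Over all alternatives Havcr2 stayed between 0.72 and 1.71 with adjusted p from 0.0926 to 1.00.

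Lag3 (chromosome 6, 124904361 to 124911705, minus strand) encodes an inhibitory receptor that binds MHC class II. It had 8, 5 and 3 UMIs in the Themis cluster in CO1 to CO3 and 1, 1 and 6 UMIs in KO1 to KO3, which is 133, 102 and 54.4 CPM against 14.9, 31.5 and 46.3 CPM. No KO library reached the lowest CO library, at counts of 1 to 8 UMIs, and in the whole T/NK-like class the groups overlapped (35.7 to 66.0 CPM against 17.8 to 45.4 CPM). Plasmacytoid dendritic-like nuclei had 65.8 CPM, beside 61.2 CPM in the Themis cluster, while macrophage-like nuclei had 7.39 CPM and mesenchymal-like nuclei 3.18 CPM. The plasmacytoid value came from 6 of 54 nuclei, 2 each in CO2, KO1 and KO3, and lay close to the limit of detection. Lag3 did not pass the low-count filter in T/NK-like sums and so has no test there.

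Tigit (chromosome 16, 43648867 to 43664146, minus strand), an inhibitory receptor for poliovirus receptor proteins, was close to the limit of detection. It had 0, 4 and 2 UMIs in T/NK-like nuclei in CO1 to CO3 and 1, 0 and 2 UMIs in KO1 to KO3. Dendritic-like, endothelial-like and host fibroblast-like nuclei had none, which allows up to 15.6, 3.14 and 5.79 CPM. It passed the filter in no class.

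Ctla4 (chromosome 1, 60887000 to 60915832, plus strand) encodes an inhibitory receptor of activated and regulatory T cells. Its level in the Themis cluster was 133, 123 and 417 CPM in CO1 to CO3 and 283, 158 and 77.2 CPM in KO1 to KO3. The spread inside each group was wider than the difference between the means of 224 ± 167 and 173 ± 104 CPM. In the Ncr1 cluster 22 of 27 UMIs came from KO1. In T/NK-like sums edgeR put the log2 difference at 0.05 with an SE of 0.62 (adjusted p = 0.998).

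Unlike Tox, Pdcd1 and Icos, Ctla4 was counted in many other kinds of nuclei. It was at 72.9 CPM in dendritic-like nuclei, close to the 76.1 CPM of the Ncr1 cluster, and at 45.6 CPM in macrophage-like, 32.9 in plasmacytoid dendritic-like, 27.8 in skeletal muscle-like, 27.6 in mesenchymal-like, 27.0 in host fibroblast-like, 22.0 in endothelial-like and 17.1 CPM in adipocyte-like nuclei. Unthinned, a Ctla4 UMI was found in only 3 of 54 plasmacytoid dendritic-like, 4 of 59 skeletal muscle-like and 1 of 64 adipocyte-like nuclei. Those levels lay close to the limit of detection. The mesenchymal-like level was 15.3% of that in the Themis cluster, against 0.127% for Pdcd1, 0.240% for Icos, 1.57% for Tigit and 5.21% for Lag3. In mesenchymal-like nuclei it differed between libraries more than between groups, at 45.3, 31.2 and 23.6 CPM in CO1 to CO3 and 39.4, 5.65 and 16.4 CPM in KO1 to KO3. In macrophage-like nuclei the libraries had 58.9, 46.2 and 34.1 CPM in CO and 72.2, 14.3 and 25.6 CPM in KO, so KO2 was the lowest library in both classes. What these counts outside lymphocytes come from was not tested, and at such a level a Ctla4 UMI in a single nucleus does not mark a T cell.

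With all libraries the log2 fold change of Ctla4 was -0.22 (SE 0.47) in macrophage-like and -0.68 (SE 0.60) in mesenchymal-like sums, with edgeR adjusted p of 0.899 and 0.598. Without KO1 it was -1.02 (edgeR adjusted p = 0.0289) and -1.59 (edgeR adjusted p = 0.04996) and passed the call in both, where 19.3% and 19% of all genes passed it. Over all alternatives the adjusted p ran from 0.0289 to 1.00 in macrophage-like and from 0.04996 to 0.987 in mesenchymal-like sums.

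Icos (chromosome 1, 60977927 to 61000320, plus strand), which starts 62094 bases after the end of Ctla4, had 70 of its 139 UMIs in the Themis cluster and 8 in the Ncr1 cluster, the highest share of the receptors in the former (50.4%). Its level in T/NK-like nuclei was 90.8, 123 and 191 CPM in CO1 to CO3 and 84.8, 88.8 and 85.7 CPM in KO1 to KO3. The groups did not overlap, as they did not for 11% of the 3448 genes tested in this class. The lowest CO library and the highest KO library were close, at counts of 11 and 5 UMIs. The means were 135 ± 51.0 CPM for CO, against 86.4 ± 2.07 CPM for KO. The fitted log2 difference was -0.60 with an SE of 0.38 (edgeR unadjusted p = 0.137, adjusted p = 0.946). Thinned to 500 UMIs, 5.06%, 6.17% and 5.26% of T/NK-like nuclei in CO and 2.96%, 0% and 1.60% in KO had an Icos UMI, a difference of -3.98 percentage points (p = 0.1, two-sided exact permutation test). With nuclei classed by their own markers the log2 fold change was 0.09, and with the mixed cluster added it was 0.16.

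**Figure D2:**
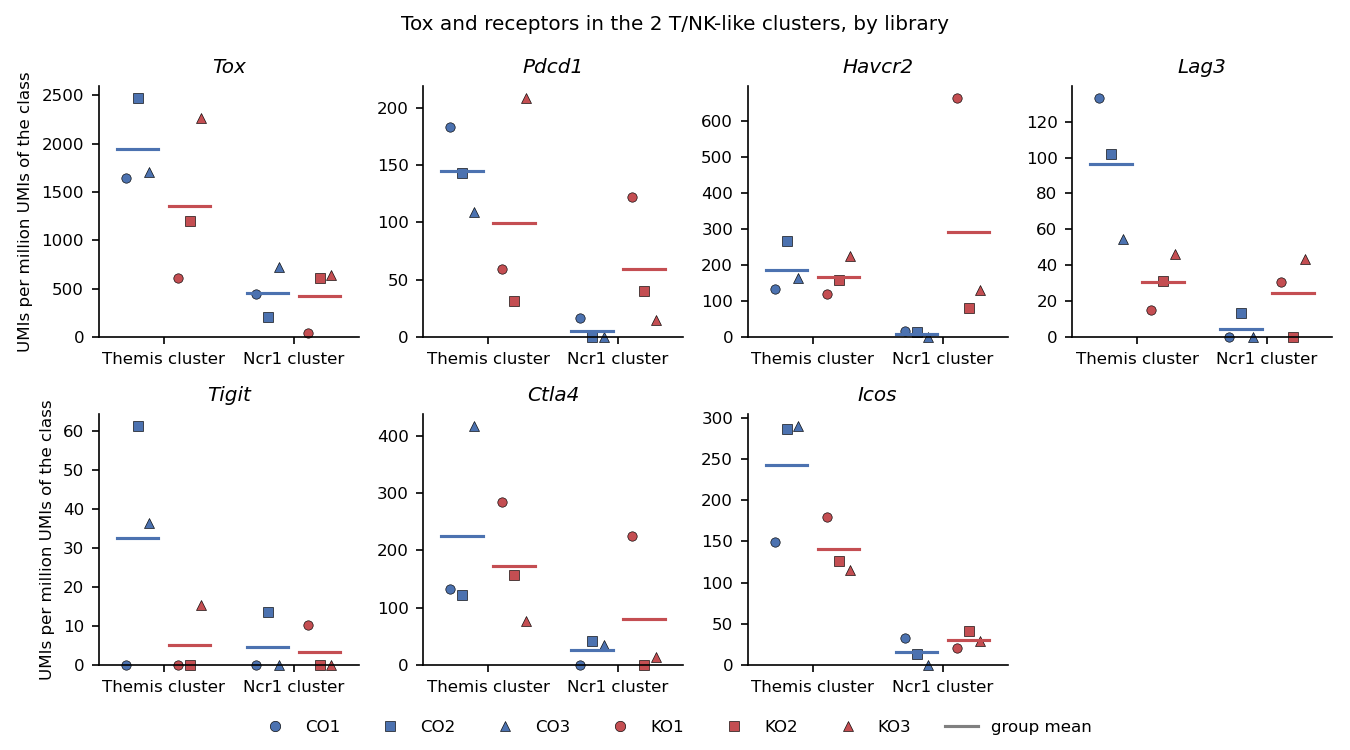
Level of Tox and 6 receptors (CPM of the cluster, one axis per gene) in the Themis and Ncr1 clusters; points are the 3 CO and 3 KO libraries and bars are group means. Tox and Icos were higher in the Themis cluster in 6 of 6 libraries, and for Havcr2 the Ncr1 cluster of KO1 stood at 663 CPM against 0 to 16.4 CPM in CO.

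Receptors seldom coincided in 1 nucleus at this depth. Of the 361 nuclei of the Themis cluster, thinned to 500 UMIs, 70 had a UMI of exactly 1 of the receptors Pdcd1, Lag3, Tigit, Ctla4 and Icos, 8 had a UMI of 2 of them and 283 had none. At least 1 was found in 21.6% of the Themis cluster and 7.08% of the Ncr1 cluster, against 3.35% of macrophage-like and 1.97% of mesenchymal-like nuclei. Those last shares, taken at median depths of 1065 and 4760 UMIs before thinning, were mostly Ctla4, which had a UMI in 167 of 6057 macrophage-like and 154 of 9044 mesenchymal-like nuclei, and their source was not tested.

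In the Themis cluster nuclei with a Tox UMI held the receptors more often than nuclei without one, by small counts. Thinned to 500 UMIs, Pdcd1 was found there in 16 of 160 nuclei with Tox (10.0%) and 12 of 201 without (5.97%). Ctla4 was found in 9.38% and 5.97%, Icos in 6.88% and 3.48%, and Havcr2 in 8.75% and 7.96%. Cd80, not a receptor of T cells, had the widest ratio of these genes at 8.12% and 3.48%, so receptors were not alone in it. Unthinned, Pdcd1 stood at 16.3% against 7.53%, but the nuclei with Tox were also deeper (median 960 against 804.5 UMIs). The Ncr1 cluster did not show this: thinned, Pdcd1 was found in 0 of 35 nuclei with Tox and 5 of 205 without, Ctla4 in 1 and 6, Icos in 0 and 2 and Tigit in 0 and 2, while Lag3 was found in 1 and 1 and Havcr2 in 3 and 15 (8.57% against 7.32%). Unthinned, Havcr2 stood there at 6.45% of nuclei with Tox against 21.3% of those without. The nuclei are not replicates and these shares carry no test.

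Subset markers were too sparse to split the Themis cluster. Cd8a and Cd8b1, which mark cytotoxic T cells, had 28 and 36 UMIs there, Cd4 had 11 and Foxp3, the regulatory T-cell factor, had 16. Foxp3 had 7, 5 and 2 of these in CO1 to CO3 and 0, 0 and 2 in KO1 to KO3.

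Other genes of T-cell regulation gave no call in T/NK-like sums. Their levels are in CPM on the scale of the edgeR fit, not scaled to the UMI total of the nuclei summed. These values cannot be set beside the CPM of the genes above. Of 11 other inhibitory receptors, 5 were tested and 0 called; the median log2 fold change was 0.48 beside -0.000202 over all genes. Cd200r1, the receptor of Cd200, had 169, 151 and 135 CPM in CO1 to CO3 and 16.6, 0 and 58.4 CPM in KO1 to KO3 (log2 fold change -2.17, SE 0.61, edgeR unadjusted p = 0.00329, adjusted p = 0.946). Entpd1 (CD39, an ectonucleotidase) had 202, 97.0 and 181 CPM in CO and 332, 225 and 415 CPM in KO (log2 fold change 1.08, SE 0.37, edgeR unadjusted p = 0.0120, adjusted p = 0.946). Neither pair of groups overlapped, as was so for 11% of the 3448 genes tested in this class. Both genes were named for their small p in the list, and neither passed the correction.

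Of 9 costimulatory receptors 3 were tested, with a median of 0.44 and no call; Cd2, an adhesion receptor, had a log2 fold change of -0.87 (SE 0.48) and Tnfrsf9 (4-1BB) of 0.79 (SE 0.70). On the same edgeR scale Tnfrsf9 stood at 2904 CPM in KO1 and at 292 to 938 CPM in the other libraries. Of 16 transcription factors of activation and exhaustion 6 were tested, with a median of 0.12 and no call; Batf had a log2 fold change of 0.97 (SE 0.55) and Ikzf2 of -0.45 (SE 0.38). Of 12 subset markers 5 were tested, with a median of -0.59 and no call; Gzmb, a cytotoxic protease, had -1.15 (SE 0.53, edgeR unadjusted p = 0.0496) and Top2a, a proliferation gene, -0.59 (SE 0.28, edgeR unadjusted p = 0.0552). Adjusted p-values for these 4 lists started at 0.946 in edgeR.

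Cd274 (chromosome 19, 29367455 to 29388095, plus strand) encodes PD-L1. Its level was highest in dendritic-like nuclei (286 CPM), followed by macrophage-like (206), the Ncr1 cluster (147), the Themis cluster (120), endothelial-like (107) and mesenchymal-like nuclei (42.5 CPM). Macrophage-like nuclei lay above mesenchymal-like nuclei in 6 of 6 libraries, at 121 to 284 CPM against 33.6 to 59.5 CPM. Dendritic-like nuclei lay above macrophage-like nuclei in only 4 of 6 libraries, so these neighbours in the order did not separate.

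Inside both classes the cluster led by interferon-response genes held the highest level of Cd274. In macrophage-like nuclei the cluster of 717 nuclei led by Gbp5 and Slfn4 had 449, 498 and 238 CPM in CO1 to CO3 and 356, 289 and 649 CPM in KO1 to KO3. The cluster led by Ms4a7 and Mrc1 had 120 to 258 CPM and that led by H2-Ab1 and Cd74, of MHC class II genes, 51.5 to 187 CPM. In mesenchymal-like nuclei the cluster of 769 nuclei led by Ifit1 and Rsad2 had 113, 105 and 135 CPM in CO and 83.6, 127 and 148 CPM in KO, against 25.1 to 65.7 CPM in the other 5 clusters with the libraries pooled. In each class the interferon cluster was the highest in 6 of 6 libraries, CO and KO alike.

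**Figure D3:**
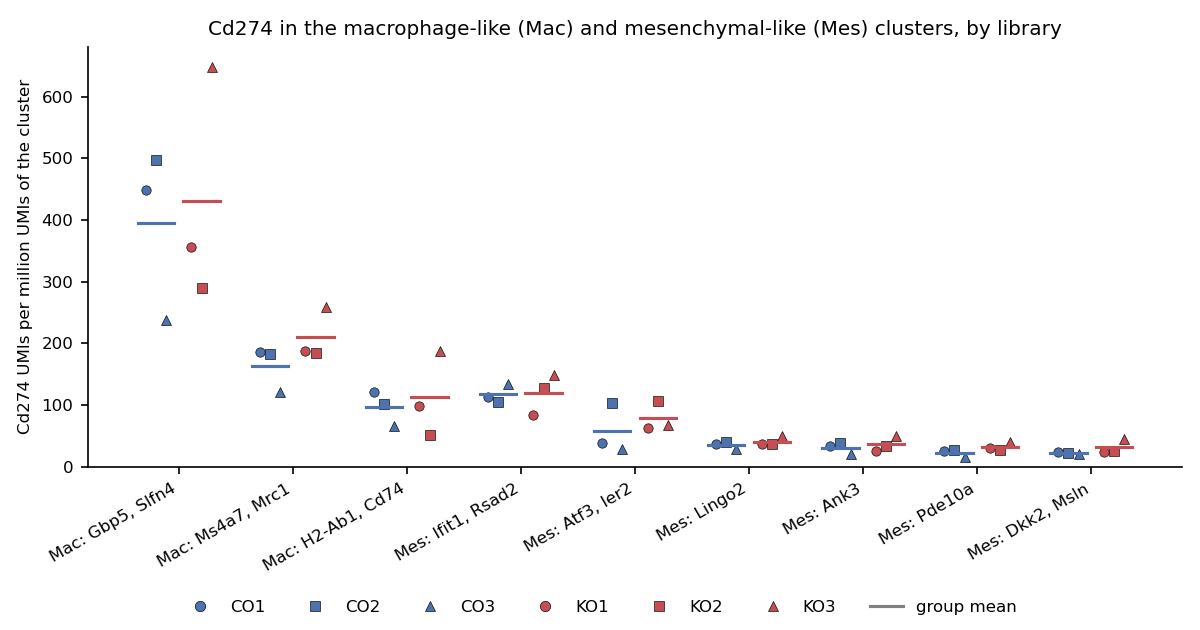
Cd274 (CPM of the cluster) in 3 macrophage-like and 6 mesenchymal-like clusters, named by leading genes; points are libraries and bars are group means. The clusters led by Gbp5 and by Ifit1 had the highest level of their class in 6 of 6 libraries.

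With the libraries pooled, the interferon cluster was also the highest of its class by share of nuclei. Thinned to 500 UMIs, 16.9% of nuclei (95% exact binomial interval 14.2 to 19.8%) in the Gbp5 cluster had a Cd274 UMI, against 7.89% (6.96 to 8.91%) and 5.28% (4.40 to 6.27%) in the other macrophage-like clusters. In the Ifit1 cluster the share was 5.98% (4.41 to 7.90%), against 0.920 to 2.86% in the other mesenchymal-like clusters, but by library it was not the highest in CO3 (2.08% against 2.27% in the cluster led by Dkk2) or KO1 (4.81% against 6.17% in the cluster led by Atf3). Cd80 and Havcr2 showed no such rise in the Gbp5 cluster, with 4.74% and 8.37% of nuclei against 4.10 to 5.02% and 6.27 to 9.11% in the other macrophage-like clusters. Among mesenchymal-like clusters Cd80 too was highest in the Ifit1 cluster, with 13.9% of nuclei against 6.43 to 12.7%. By level in CPM it was the highest there in only 3 of 6 libraries. The intervals cover counting error only, and the clusters were made from the same nuclei, so no test was run.

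The promoters of Cd274 and its neighbour Pdcd1lg2, which starts 22823 bases after the end of Cd274 on the same strand, are shown because these adjacent genes had such different distributions. Each sequence runs from 250 bases before to 50 bases after the RefSeq start (GRCm38.p6, plus strand), chr19:29367188-29367487 for Cd274 and chr19:29410669-29410968 for Pdcd1lg2, and capitals mark a match, read on the other strand, to the element GAAANNGAA of interferon regulatory factors.
Cd274: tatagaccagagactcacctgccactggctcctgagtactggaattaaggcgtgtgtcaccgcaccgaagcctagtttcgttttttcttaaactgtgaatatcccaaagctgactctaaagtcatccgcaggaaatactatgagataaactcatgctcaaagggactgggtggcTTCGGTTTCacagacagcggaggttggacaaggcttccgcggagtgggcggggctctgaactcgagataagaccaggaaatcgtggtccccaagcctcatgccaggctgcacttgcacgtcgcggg
Pdcd1lg2: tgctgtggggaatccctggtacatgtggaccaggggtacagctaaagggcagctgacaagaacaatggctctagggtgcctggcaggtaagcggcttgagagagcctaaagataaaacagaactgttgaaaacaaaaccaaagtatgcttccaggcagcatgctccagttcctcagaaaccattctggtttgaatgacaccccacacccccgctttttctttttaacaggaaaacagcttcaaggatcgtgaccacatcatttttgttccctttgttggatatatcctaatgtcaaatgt
The Cd274 match starts 76 bases before the start, and Pdcd1lg2 has none. Both strands were searched, and of 32851 RefSeq promoters of this length 8.56% held GAAANNGAA. The same letters with 1 more A at the 3′ end, the interferon-stimulated response element, were in 3.44% of promoters and TTCNNNGAA, the gamma-interferon-activated site, in 8.30%, and none of the 7 genes with a promoter entry held either. The AP-1 site TGANTCA was in 7.81% of promoters, Cd80 and Havcr2 among them, and Ctla4 was the other gene with GAAANNGAA. A match is a description of the letters in this window and does not show that a factor binds there.

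Between the groups Cd274 differed by less than the libraries did. In macrophage-like nuclei it was at 201, 198 and 121 CPM in CO1 to CO3 and 183, 164 and 284 CPM in KO1 to KO3, and in mesenchymal-like nuclei at 40.6, 42.9 and 33.6 CPM and 36.9, 43.4 and 59.5 CPM. KO3 was the highest library in both. The fitted log2 difference was 0.31 with an SE of 0.28 (edgeR adjusted p = 0.798) in macrophage-like and 0.31 (SE 0.22, edgeR adjusted p = 0.576) in mesenchymal-like sums.

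Pdcd1lg2 (chromosome 19, 29410919 to 29471161, plus strand) encodes PD-L2, the ligand of PD-1 known from dendritic cells and macrophages. In CPM it was highest in lymphocyte nuclei here: 147 CPM in the Ncr1 cluster and 81.5 CPM in the Themis cluster, against 57.2 in dendritic-like, 8.97 in macrophage-like and 4.87 CPM in mesenchymal-like nuclei. T/NK-like nuclei held 17, 18 and 10 UMIs in CO1 to CO3, against 25, 5 and 9 in KO1 to KO3, and they lay above macrophage-like and mesenchymal-like nuclei in 6 of 6 libraries. The macrophage and dendritic marker sums in the Ncr1 cluster were 447 to 1492 CPM and 71.4 to 244 CPM. Of these markers 2 of 18 macrophage and 7 of 12 dendritic ones were at 0 there. The part that RNA of other cells had in the Pdcd1lg2 level of lymphocyte nuclei was not tested.

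Summed over all nuclei, Pdcd1lg2 was lower in every KO library than in every CO library. It had 183, 128 and 50 UMIs in CO1 to CO3 (12.3, 9.32 and 6.39 CPM) and 70, 44 and 66 UMIs in KO1 to KO3 (4.13, 2.86 and 5.90 CPM). The means were 9.35 ± 2.98 and 4.30 ± 1.53 CPM, a fitted log2 difference of -1.09 with an SE of 0.37, an unadjusted p of 0.0200 and an adjusted p of 0.672 in edgeR. Groups did not overlap for 10.8% of the 13662 genes tested in these sums, and 0% were called. In such sums fewer nuclei of a type and less RNA per nucleus cannot be told apart.

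The fitted direction was the same in each class that could be compared. In mesenchymal-like nuclei the libraries had 134, 60 and 16 UMIs in CO, against 23, 35 and 27 in KO (11.1, 5.82 and 3.15 CPM against 1.83, 2.57 and 3.86 CPM), a fitted log2 difference of -1.28 with an SE of 0.50 (edgeR unadjusted p = 0.0375, adjusted p = 0.576) that was -0.68 without CO1. The groups overlapped there, because KO3 lay above CO3. In macrophage-like sums it was -0.87 with an SE of 0.61 (edgeR adjusted p = 0.779) and in T/NK-like sums -0.52 (SE 0.45, edgeR adjusted p = 0.946). Dendritic-like nuclei held 5, 2 and 4 UMIs in CO and none in KO: 109 CPM over 100510 UMIs of the CO libraries, and a count of 0 over 91649 UMIs of the KO libraries, which allows up to 32.7 CPM. These classes come from the same 6 libraries and are not independent of each other, and over all alternatives the lowest adjusted p of Pdcd1lg2 was 0.130.

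Cd80 (chromosome 16, 38455561 to 38496335, plus strand), the B7-1 ligand of Ctla4 and of the costimulatory receptor Cd28, had the most UMIs of the 10 genes, 18093, of which 82.1% lay in mesenchymal-like nuclei. In these its level was 219, 278 and 197 CPM in CO1 to CO3 and 229, 267 and 264 CPM in KO1 to KO3, above macrophage-like nuclei (76.4, 83.2 and 74.3 CPM in CO, and 131, 79.8 and 94.3 CPM in KO) in 6 of 6 libraries. Each of the 6 mesenchymal-like clusters held it, at 178 to 288 CPM. Thinned to 500 UMIs, 10.4% of mesenchymal-like nuclei (95% exact binomial interval 9.80 to 11.1%) and 4.52% of macrophage-like nuclei (4.01 to 5.08%) had a Cd80 UMI. Adipocyte-like nuclei had no Cd80 UMI, which allows up to 51.4 CPM, while skeletal muscle-like nuclei had 97.2 CPM, endothelial-like 139 CPM and host fibroblast-like 183 CPM.

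Among dendritic-like nuclei Cd80 and Cd274 were higher in the smaller cluster. The 45 nuclei led by Mreg, with Flt3 among their leading genes, had 962 CPM of Cd80 and 677 CPM of Cd274, against 169 and 125 CPM in the 108 nuclei led by Flt3, Itgae and Dpp4. Thinned to 500 UMIs, 40.0% of the Mreg cluster (95% exact binomial interval 25.7 to 55.7%) had a Cd80 UMI and 24.4% (12.9 to 39.5%) a Cd274 UMI, against 9.26% (4.53 to 16.4%) and 3.70% (1.02 to 9.21%) in the other cluster. Pdcd1lg2 had 5 UMIs in the Mreg cluster and 6 in the other, and after thinning it was found in 0 of 45 and 2 of 108 nuclei. Havcr2 lay the other way from Cd80, with 213 CPM in the Flt3 cluster and 17.8 CPM, a single UMI, in the Mreg cluster. One KO library had 8 dendritic-like nuclei, so these were not compared between the groups by a model.

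The groups did not separate for Cd80. The fitted log2 difference was 0.20 with an SE of 0.20 (edgeR adjusted p = 0.630) in mesenchymal-like and 0.41 (SE 0.22, edgeR unadjusted p = 0.0948, adjusted p = 0.770) in macrophage-like sums, where KO1 at 131 CPM was the highest library.

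**Figure D4:**
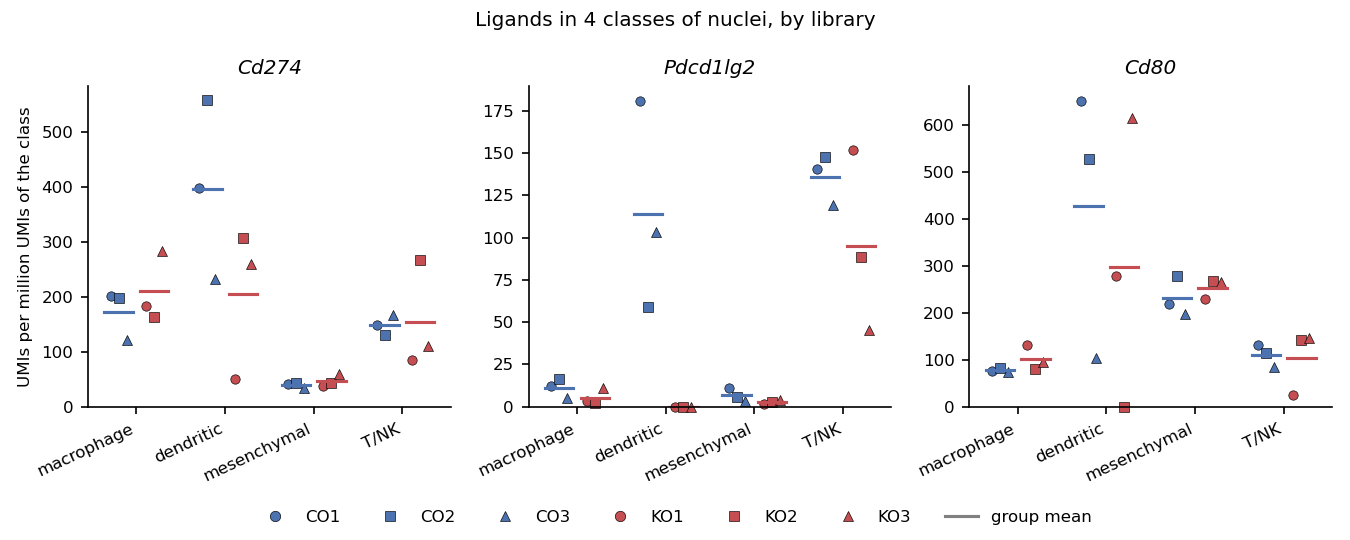
Level of the 3 ligands (CPM of the class, one axis per gene) in macrophage-like, dendritic-like, mesenchymal-like and T/NK-like nuclei; points are libraries and bars are group means. Cd80 was higher in mesenchymal-like than in macrophage-like nuclei in 6 of 6 libraries, and Pdcd1lg2 was at 0 in the dendritic-like nuclei of the 3 KO libraries.

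Havcr2 in macrophage-like nuclei was the most even of these values, at 205, 199 and 153 CPM in CO1 to CO3 and 184, 174 and 173 CPM in KO1 to KO3. The fitted log2 difference was -0.06 with an SE of 0.19 (edgeR adjusted p = 0.932).

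Counted over the 10 genes, 8 passed the low-count filter in T/NK-like sums, 6 in macrophage-like, 7 in mesenchymal-like sums and 9 in sums over all nuclei, and 0 were called in any of them. The groups did not overlap for 2, 0, 0 and 1 of them, beside 11%, 11.9%, 12.8% and 10.8% of all genes tested. The edgeR test called 0 of 3448, 10010, 12824 and 13662 genes (0% each), although 155, 583, 880 and 660 genes were at p under 0.05 before adjustment. DESeq2 called 1, 5, 19 and 10 genes, none of them among the 10. The median log2 fold change of the genes that passed was -0.17, 0.12, 0.20 and 0.08, beside -0.000202, -0.00389, -0.02 and -0.02 over all genes.

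**Figure D5:**
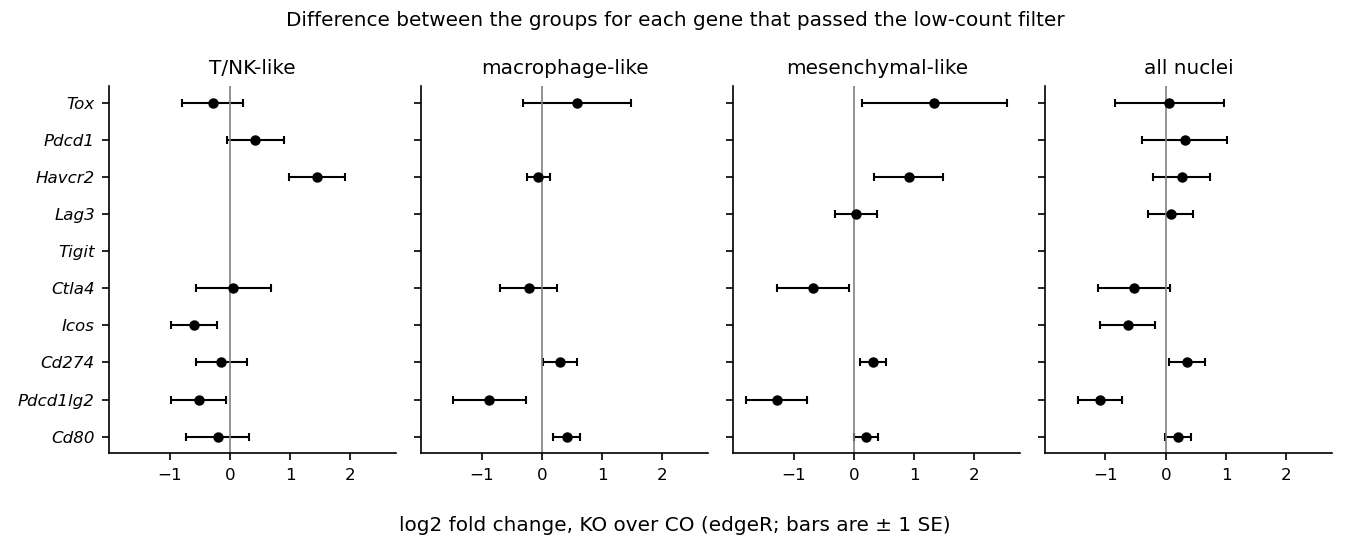
Log2 fold change, KO over CO, with its standard error from edgeR, for each of the 10 genes that passed the low-count filter in T/NK-like, macrophage-like and mesenchymal-like sums and in sums over all nuclei. Havcr2 in T/NK-like sums (1.44, SE 0.46) and Pdcd1lg2 over all nuclei (-1.09, SE 0.37) lay farthest from 0 relative to their errors.

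Other ligands and the genes that regulate PD-L1 gave no call either. The CPM of both lists are again on the scale of the edgeR fit. They cannot be set beside the CPM of Cd274, Pdcd1lg2, Cd80 and Havcr2 above. Of 19 other checkpoint and costimulatory ligands 11 were tested in macrophage-like sums, with a median of 0.01, and 13 in mesenchymal-like sums, with a median of 0.14. Pvr, the ligand of Tigit, had 19.2, 19.2 and 17.5 CPM in CO1 to CO3 and 25.5, 29.5 and 45.7 CPM in KO1 to KO3 in macrophage-like nuclei (log2 fold change 0.86, SE 0.31, edgeR unadjusted p = 0.0212, adjusted p = 0.770). Lgals9, a ligand of Havcr2, had 237, 260 and 256 CPM in CO and 215, 94.8 and 114 CPM in KO (log2 fold change -0.80, SE 0.30, edgeR unadjusted p = 0.0238, adjusted p = 0.770). In mesenchymal-like sums the same gene had -0.32 (SE 0.20), and Cd86, the B7-2 ligand, had 1.501 (SE 0.71, edgeR adjusted p = 0.576) at 0.985 to 8.14 CPM.

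All 14 inducers and stabilizers of PD-L1 were tested in both classes, with medians of -0.01 in macrophage-like and 0.01 in mesenchymal-like sums. Ifngr2, a chain of the interferon gamma receptor, had 307, 321 and 279 CPM in CO1 to CO3 and 265, 200 and 185 CPM in KO1 to KO3 in macrophage-like nuclei (log2 fold change -0.48, SE 0.21, edgeR unadjusted p = 0.0470, adjusted p = 0.770). Its groups did not overlap, as they did not for 11.9% of the 10010 genes tested in this class. The other chain, Ifngr1, had -0.54 (SE 0.27). In mesenchymal-like sums Nfkb1 had 0.41 (SE 0.22) and Myc -0.39 (SE 0.22), with edgeR adjusted p of 0.576 for each.

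Genes whose levels followed those of the 10 genes most closely were ranked by Pearson's r over 18 points, 3 classes of nuclei in 6 libraries. The points share libraries and depth, and r includes differences between the classes, so it is a description. No r was taken within a class. Tox was closest to the T-cell kinase gene Prkcq (r = 0.984) and to Skap1, Pdcd1 to Klrc1 (r = 0.984) and Ikzf3, and Icos to Gpr174 (r = 0.994) and Fasl, all genes of lymphocytes. Lag3 was closest to Adgre5 (r = 0.948), with Pdcd1 next, and Ctla4 to Serpinb6a (r = 0.929). Havcr2 was closest to Eif2s3y (r = 0.992) and Uty, genes of the Y chromosome. Among the ligands, Cd274 was closest to Hrh2 (r = 0.956), Cd80 to Arhgef25 (r = 0.948) and Pdcd1lg2 to Nkg7 (r = 0.965), a gene of cytotoxic lymphocytes, with Icos next. Tigit, with 39 UMIs, was not ranked.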

How the data were processed

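The 6 libraries of nuclei (3 CO, 3 KO, 1 tumor each per the labels) were analysed from the deposited matrices of UMI counts, whole numbers that were not normalized. The authors made these counts with Cell Ranger (3.0.2 per the labels, 3.1.0 per the file headers) on GRCm38. Whether introns were counted and which strand setting was used are not given in the sources used here; antisense genes overlap Tox, Cd274 and Pdcd1lg2. The authors' correction for ambient RNA is not visible in whole-number counts, and some samples received extra washes that the labels do not name.

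Nuclei with 100 to 7500 genes and under 20% mitochondrial UMIs were kept (18014 of 18865). Scrublet's own cut marked 11 doublets, so the highest-scoring 0.8% per 1000 nuclei were removed instead (480 nuclei). Clusters came from scanpy 1.11.5 (2000 variable genes without the 10 genes, 30 components, Harmony over libraries, Leiden at resolution 1) and were named from the listed markers detected in them, which were not among the 10 leading genes of 3 mesenchymal-like clusters; 3 clusters (1207 nuclei) met the mesenchymal list best but stayed unnamed, 1 of them shallow, 1 with high doublet scores and 1 led by T/NK genes. Raw counts were summed per library and class and tested with edgeR 4.0.16 (TMM, filterByExpr, quasi-likelihood, Benjamini-Hochberg over all genes tested), called at an absolute log2 fold change of at least 0.58 and an adjusted p of at most 0.05. The test was tried on simulated data. Shares of nuclei were taken after thinning to 500 UMIs, with exact Clopper-Pearson intervals at 95% and a limit of 3 counts for a count of 0; both cover counting error only. Promoters came from RefSeq, for 7 of the 10 genes.

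The genes, lists and tests were chosen with earlier results of these data known. Every one of the 10 genes is named; from each list the genes called and the 2 with the smallest unadjusted p are named. Alternatives were DESeq2 1.42.0 and its size factors, no filter, a replicate block, each library left out, classes by single-nucleus markers, no doublet removal, thinning and a cut at 3000 UMIs; added after the data were seen were leaving out shared barcodes, adding the mixed cluster and using the Themis cluster alone. P-values measure the spread between these libraries.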

Additional observations from a re-analysis of the deposited data

Results flagged for a closer look

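Havcr2 in the mixed cluster was higher in every KO library than in every CO library. These 184 nuclei were led by T/NK genes and carried mesenchymal and macrophage markers. They entered the sums over all nuclei and some alternatives, but no named class. Havcr2 had 19, 14 and 13 UMIs there in CO1 to CO3 and 11, 7 and 23 UMIs in KO1 to KO3. That is 58.3, 39.8 and 29.9 CPM against 69.6, 80.8 and 73.9 CPM. The KO mean was 74.8 ± 5.62 CPM and the CO mean 42.7 ± 14.4 CPM (SD, n = 3). The difference was not tested, and the value was picked because all KO libraries lay above all CO libraries. The 18 macrophage markers summed there to 998, 1262 and 711 CPM in CO1 to CO3 and 1627, 1039 and 977 CPM in KO1 to KO3, and their part in the Havcr2 level was not tested. Among values with at least 20 UMIs outside the compared classes, only Havcr2 in the mixed cluster had all KO libraries above all CO libraries. Pdcd1lg2 in the same nuclei lay the other way, at 33.8, 42.6 and 25.3 CPM in CO and 12.7, 23.1 and 6.43 CPM in KO. So did Ctla4 in endothelial-like nuclei (21 UMIs), at 27.2 to 95.9 CPM in CO and 12.1 to 26.1 CPM in KO. In the tested sums the groups did not overlap, in either direction, for 10.8% to 12.8% of all genes.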

How the results depend on the processing

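Calls depended on the tool and on KO1. The counts of called genes in T/NK-like sums, 0 in the fit reported, were 1 with DESeq2, 43 with no low-count filter and 5 with the replicate block; in macrophage-like, mesenchymal-like and all-nuclei sums DESeq2 called 5, 19 and 10. Leaving out 1 library gave 0 to 39, 0 to 1937, 0 to 2462 and 0 to 0 calls in these 4 comparisons; the 39, 1937 and 2462 came from leaving out KO1, and leaving out KO2 gave 1 call in T/NK-like sums. Of 404 refitted log2 fold changes of the 10 genes, 366 kept direction and side of the threshold and 3 became called, each without KO1: Tox (1.35) and Ctla4 (-1.02) in macrophage-like and Ctla4 (-1.59) in mesenchymal-like sums. The causes were not tested.

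In 35 the direction turned, 24 of them on leaving out 1 library. With classes by single-nucleus markers T/NK-like Tox became 0.11, Icos 0.0879, Cd274 0.21 and Cd80 0.0666, and mesenchymal-like Lag3 -0.19; with the mixed cluster added, Tox became 0.30, Icos 0.16 and Cd274 0.29. Over single omissions T/NK-like Tox ran from -1.01 to 0.15, Ctla4 from -1.07 to 0.95, Cd274 from -0.56 to 0.0530 and Cd80 from -0.85 to 0.29; macrophage-like Havcr2 from -0.16 to 0.0240 and Ctla4 from -1.02 to 0.0632; mesenchymal-like Tox from -1.15 to 1.95 and Lag3 from -0.15 to 0.22; and over all nuclei Tox from -1.91 to 0.57, Pdcd1 from -0.58 to 0.79, Havcr2 from -0.21 to 0.66, Lag3 from -0.14 to 0.32 and Cd274 from -0.0144 to 0.51.

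The groups share replicate numbers. Same-numbered samples correlated at -0.28 to 0.50, and 2 to 4 of 6 samples per comparison were closest to their own number. Median mitochondrial percent, however, followed the number in both groups: 6.76, 3.98 and 1.33 in CO1 to CO3, and 6.24, 3.83 and 0.890 in KO1 to KO3. Skeletal muscle-like nuclei did too, at 2, 5 and 24 in CO and 3, 6 and 19 in KO. What the number stands for was not tested, and the fit reported has no replicate block. With the replicate block T/NK-like Ctla4 became -0.10 and, over all nuclei, Tox -0.81 and Pdcd1 -0.0429; it called none of the 10 genes. Of 150 refitted differences in shares 138 moved by less than the spread between libraries; those that moved more included Havcr2 in T/NK-like nuclei, from 3.74 percentage points to 12.0 at 1000 UMIs and 7.77 unthinned, and Icos, from -3.98 to -1.67 at 1000 UMIs. Depth limits the receptors: Tigit, Lag3, Pdcd1 and Icos had 9 to 78 UMIs in all T/NK-like nuclei.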
